A study of Mus musculus with 2 samples.

Results

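The 35 genes described here belong to the programme that type I interferon switches on in most cells, and were taken as 35 of the 35208 gene rows of a single-cell expression matrix by their symbols. Their level was read in marker-gated cell types and in 4 pools of cells from inflamed mouse ear skin. The model was IgE-dependent chronic allergic inflammation (IgE-CAI), in which mice were sensitised intravenously with 300 µg of a TNP-specific IgE, TNP being a hapten, and then challenged in the ear with 10 µg of TNP-conjugated ovalbumin. The pools came from WT BALB/c mice and from Ccr2-/- mice, each taken 3 and 5 days after challenge. Where values are given in pool order, the WT pools precede the Ccr2-/- pools and day 3 precedes day 5 within a genotype. Ccr2 encodes the chemokine receptor that brings classical monocytes out of the bone marrow, and the label of the Ccr2-/- animals names no cell type to which the deletion is limited. All 4 pools carried IgE and antigen, and no pool of untreated or control-injected skin was analysed here. A hashtag antibody marked each pool, every combination of genotype and day was a single pool, and the number of mice in a pool is not given in the sources used here. P-values therefore measure the spread between pools, which may be technical.

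Type I interferons bind a shared receptor, and the kinases attached to it activate STAT proteins that enter the nucleus together with Irf9 and switch on interferon-stimulated genes. The products slow viruses at many steps and also sense nucleic acids, feed back on the interferon signal and mark cells that have met interferon. Neutrophils and monocytes are known to express such genes when interferon is present, and some members, such as Ifitm3, are also used by many stromal cells without infection.

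The DNA motif known as the interferon-stimulated response element carries a pair of GAAA blocks, so the stretches just before the start of a few members are shown. RefSeq promoter windows of GRCm38.p6 (250 bases before to 50 bases after the start, 300 in all) were found for 25 of the 35 members, as 29 windows. The letters GAAA, any 2 bases and GAAA again were searched on both strands, with overlaps allowed. They stood in a window of 14 of the 25 members and in 3.44% of all 32851 windows. The longer form, in which CT follows the second GAAA and which is a subset of the shorter, stood in 7 of the 25 members and in 0.27% of all windows. A match is a description of letters and not a site of binding. The stretches below are 150 bases long, end at the base before the start, run 5′ to 3′ on the gene's strand and have this motif, or its reverse complement with TTTC in place of GAAA, in capitals. Isg15 was chosen for its 3 overlapping matches, Ifit1 and Oas1a for 2 each and Rsad2 for 1, and Slfn4 because it had no match in its window although it was among the members most raised in neutrophil-like cells.
Isg15 (chr4:156200819-156200968, minus strand): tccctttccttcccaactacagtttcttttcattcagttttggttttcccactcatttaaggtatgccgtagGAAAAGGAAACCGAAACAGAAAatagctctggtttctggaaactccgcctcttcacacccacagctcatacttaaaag
Ifit1 (chr19:34640739-34640888, plus strand): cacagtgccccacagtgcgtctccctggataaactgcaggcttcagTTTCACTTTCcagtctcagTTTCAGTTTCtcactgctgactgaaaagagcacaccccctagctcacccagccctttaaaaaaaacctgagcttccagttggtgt
Oas1a (chr5:120907526-120907675, minus strand): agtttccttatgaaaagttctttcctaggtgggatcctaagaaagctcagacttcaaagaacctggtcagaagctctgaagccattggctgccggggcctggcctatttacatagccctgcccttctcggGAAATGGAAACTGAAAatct
Rsad2 (chr12:26456453-26456602, minus strand): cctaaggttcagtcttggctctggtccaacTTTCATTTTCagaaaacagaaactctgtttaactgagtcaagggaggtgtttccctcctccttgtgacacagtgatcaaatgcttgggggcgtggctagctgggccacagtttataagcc
Slfn4 (chr11:83175036-83175185, plus strand): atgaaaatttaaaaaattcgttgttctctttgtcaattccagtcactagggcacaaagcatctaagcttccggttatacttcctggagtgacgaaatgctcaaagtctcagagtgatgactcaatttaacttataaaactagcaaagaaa

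The matrix held 548117598 reads, and 7118 cells were kept in the 4 pools (1037 to 2347 cells a pool, with a median of 18632 to 48232 reads per cell). Of these, 5654 were gated to a cell type by fixed marker lists, and 89 of the 94 lineage markers and 26 of the 27 subset markers were highest in the type they name. Each name ends in "-like", since only transcripts stand behind it. Levels are CPM, the reads of a gene per 1000000 of the reads summed over the cells of a type in a pool, and their exact 95% Poisson intervals cover counting error only, because the reads carry no molecular identifiers. Ccr2 itself stood at 1002 and 692 CPM in the monocyte and macrophage-like (Mo-Mac-like) cells of the WT pools and at 67.8 and 96.7 CPM in those of the Ccr2-/- pools, on days 3 and 5. The day 5 WT pool held only 6 neutrophil-like cells, so neutrophil-like tests use the other 3 pools.

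More members were called higher in neutrophil-like cells than in any other of the 15 types tested. Of the 35 members, 18 had their highest mean level over pools in neutrophil-like cells, 5 in Mo-Mac-like cells, 5 in plasmacytoid DC-like cells, 2 each in basophil-like, blood endothelial-like and lymphatic endothelial-like cells, and 1 in conventional DC-like cells. The 2 highest in basophil-like cells were Ifit3 and Ifit3b, and 54.8% of the reads of the 32 members summed further on came from 1 cell in the WT day 3 basophil-like cells. Each of 15 types with enough cells was tested against the mean of the others with the pool as a block (edgeR quasi-likelihood test, adjusted p below 0.05 over 16229 genes). All 35 members passed the filter on low counts in this fit. In neutrophil-like cells 28 members were higher and 0 were lower, beside 23% of all genes higher and 12.7% lower. DESeq2 called 27 higher and 1 lower, beside 22.1% and 18.4% of all genes. By edgeR 29 members had an unadjusted p below 0.05, beside 43.7% of all genes. The median log2 difference of the members was 3.58, beside -0.01 over all genes tested. Mo-Mac-like cells had 15 members higher and 0 lower, beside 10.7% of all genes higher and 2.28% lower, with a median of 1.92 beside 0.22. DESeq2 called 13 higher and 0 lower there, beside 7.75% and 8.53% of all genes. Because the reference averages the fitted log2 levels of the other types, some of which had almost no reads of a gene, these differences give a direction and are not a ratio to a typical cell.

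**Figure D1:**
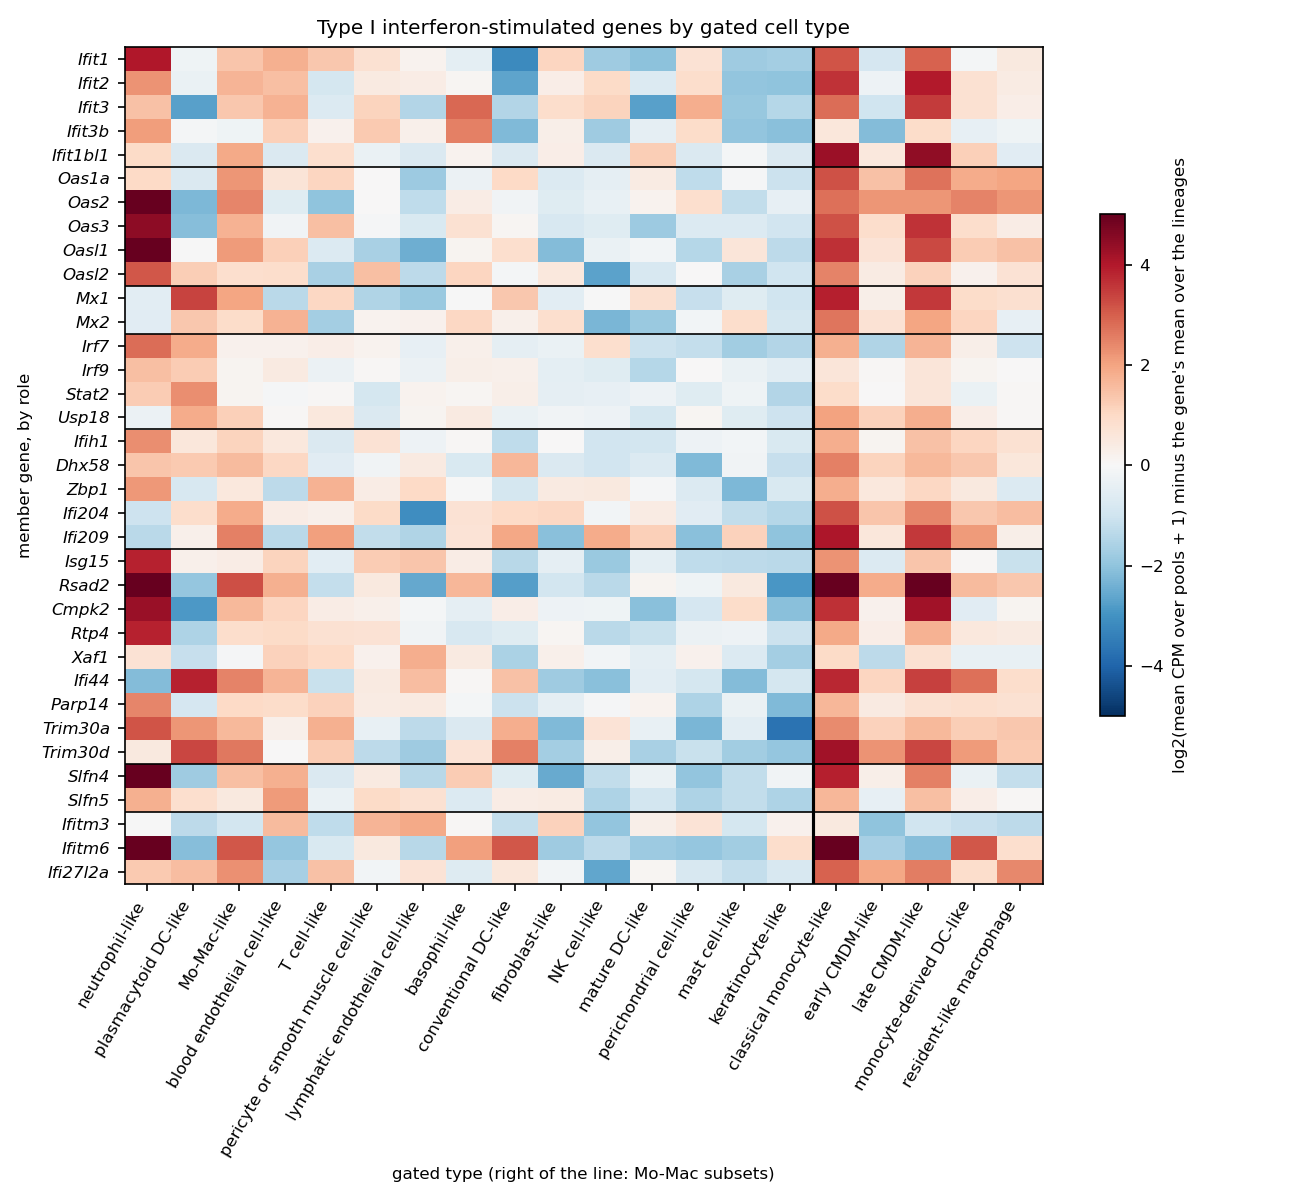
Heat map of the mean level over pools, as log2(CPM + 1) minus the gene's mean over the gated lineages, for the 35 members (rows, by role) in each gated type (columns, with the Mo-Mac subsets right of the line). The neutrophil-like column is above the gene's mean for most rows, and Mx1, Ifi44, Stat2 and Trim30d are highest in the plasmacytoid DC-like column.

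The Schlafens stood out in neutrophil-like cells. Slfn4, a Schlafen gene known from myeloid cells, was at 3166 CPM in WT day 3, 2421 in Ccr2-/- day 3 and 1438 in Ccr2-/- day 5. It was between 1.84 and 2.84 CPM in the fibroblast-like cells of the 4 pools, and no other lineage had a mean level over pools above the 66.4 CPM of blood endothelial-like cells. The neutrophil-like difference was a log2 of 7.96 ± 0.49 (SE, adjusted p = 1.43e-17, edgeR). After thinning each cell to 10000 reads, Slfn4 was read in 66.7% (interval 41.0 to 86.7, n = 18), 80.4% (73.9 to 86.0, n = 179) and 72.4% (67.5 to 77.0, n = 352) of neutrophil-like cells in those 3 pools, and in 1.48% to 2.31% of fibroblast-like cells. The part of free RNA in these reads was not tested. Its relative Slfn5, a repressor of transcription, was at 463, 445 and 231 CPM in the same 3 pools of neutrophil-like cells and at 346 to 737 CPM in blood endothelial-like cells, its highest type. About 10.8% of the 50-base words of Slfn4 transcripts also occur in Slfn3, so a part of its reads could belong to that gene.

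All 5 IFIT and all 5 OAS genes were called higher in neutrophil-like cells. Ifit1, whose product binds viral RNA that lacks the cap methylation of host RNA, was at 329.7, 169.7 and 83.1 CPM in the same 3 pools, WT first, against a highest mean elsewhere of 40.9 CPM in blood endothelial-like cells. Ifit2, an RNA-binding relative, was at 55.3, 50.4 and 27.0 CPM in the same order. Both differences passed the test, Ifit1 at a log2 of 4.92 ± 0.72 (adjusted p = 2.65e-07) and Ifit2 at 3.63 ± 0.81 (adjusted p = 0.000327). Oasl1, an OAS-like protein known to restrain Irf7, was at 506, 234 and 139 CPM. Oasl2, which binds double-stranded RNA, was at 109, 128 and 76.4 CPM. Oasl1 was lower in each Ccr2-/- pool than in WT day 3, while the Oasl2 values of the 3 pools lay closer together. Ifit3 shares 51.2% of its 50-base words with Ifit3b and Oas1a shares 57.6% with Oas1g, so reads of these genes could be split between the copies.

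Among the signalling members, Irf7, the factor that amplifies interferon production, was at 354, 574 and 324 CPM in the 3 neutrophil-like pools and at 59.9 to 384 CPM in plasmacytoid DC-like cells, its next highest type. Irf7 passed the test in neutrophil-like cells with a log2 of 3.77 ± 0.51 (adjusted p = 6.33e-08). Stat2, a subunit of the interferon-activated transcription complex, was at 84.0, 264 and 167 CPM in neutrophil-like cells and was highest in plasmacytoid DC-like cells, at 307, 284, 381 and 376 CPM in pool order. Irf9 was also called in neutrophil-like cells. Usp18, which removes Isg15 from proteins and damps the receptor, was the only member called in none of the 15 types; it was at 4.1, 9.52 and 14.7 CPM in neutrophil-like cells and at 19.5 to 40.3 CPM in Mo-Mac-like cells.

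The remaining effectors divided by cell type. Isg15, a ubiquitin-like protein, was at 655, 578 and 466 CPM in the 3 neutrophil-like pools and had a next highest mean of 102 CPM in lymphatic endothelial-like cells, with a neutrophil-like log2 difference of 4.78 ± 0.42 (adjusted p = 7.81e-13). Rsad2 (viperin), which makes a chain-terminating nucleotide, was at 913, 513 and 498 CPM, with a log2 difference of 8.20 ± 0.65 (adjusted p = 3.17e-14). These values of Rsad2 came from a minority of cells, since 44.4%, 25.7% and 28.1% of thinned neutrophil-like cells had a read of it in these pools. Zbp1, a sensor of Z-form nucleic acids, was at 166, 185 and 158 CPM. Ifi204, of the family of interferon-inducible DNA sensors, was at 47.1, 12.1 and 15.8 CPM, beside its highest mean of 191 CPM in Mo-Mac-like cells. Xaf1, a partner of the apoptosis inhibitor XIAP, was at 51.2, 102 and 56.5 CPM. It was called in neutrophil-like cells, but its highest type was lymphatic endothelial-like cells, at 118 to 204 CPM.

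A group of 7 members was not called in neutrophil-like cells, and comprised Mx1, Mx2, Usp18, Ifi204, Ifi209, Ifi44 and Ifitm3. The antiviral GTPases Mx1 and Mx2 were at most 4.1 CPM in every neutrophil-like pool. Mx1 was highest in plasmacytoid DC-like cells (109, 30.4, 21.3 and 37.7 CPM in pool order) and Mx2 in blood endothelial-like cells (17.1, 38.3, 6.33 and 8.10 CPM in the same order). RefSeq lists Mx1 and Mx2 of GRCm38.p6 as transcribed pseudogenes. Ifi44, a cytoplasmic protein of unclear function, was at most 6.14 CPM in neutrophil-like cells and at 74.3 to 443 CPM in plasmacytoid DC-like cells. Ifitm3, which blocks viral fusion with the cell membrane, was read in every type and was highest in lymphatic endothelial-like cells at 2717 to 5554 CPM, beside 657, 1474 and 1087 CPM in neutrophil-like cells.

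**Figure D2:**
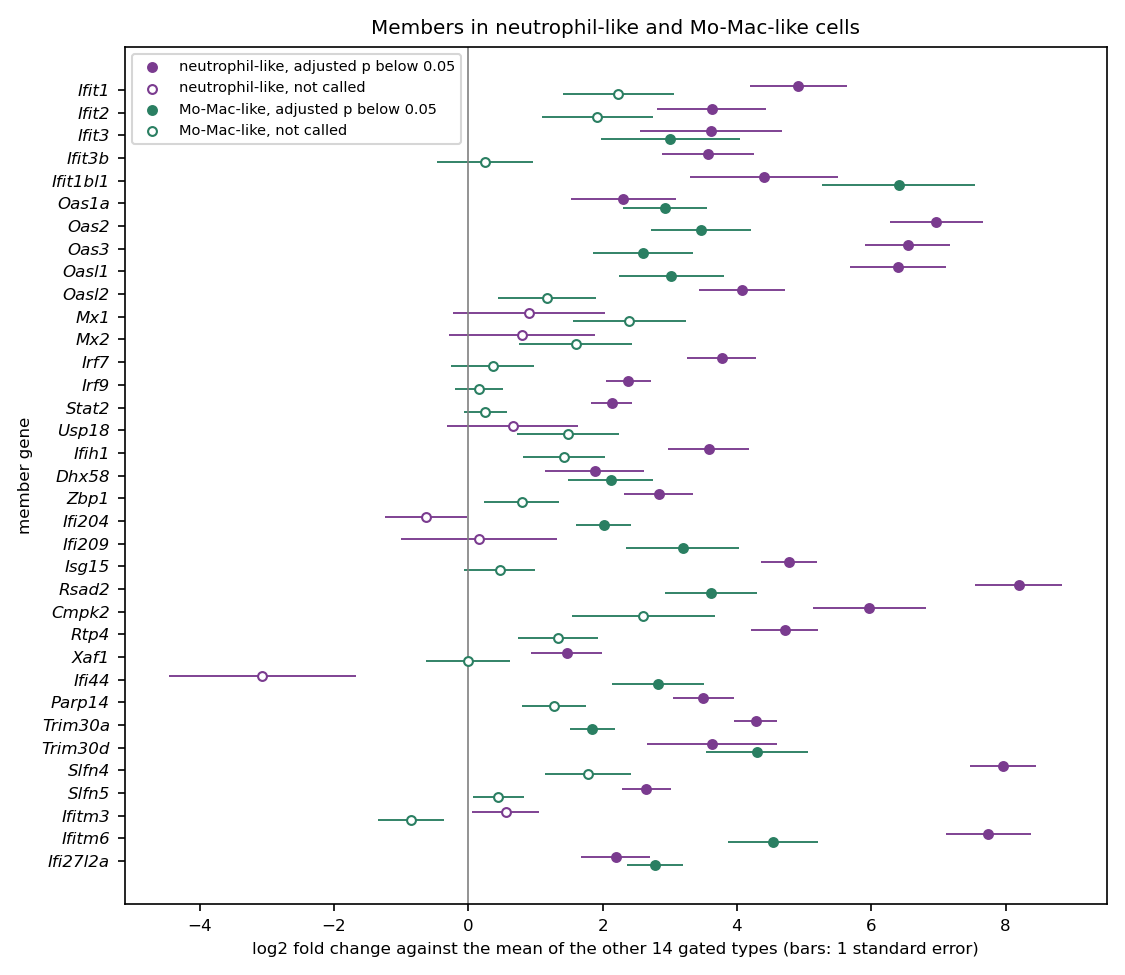
Log2 difference of each member (rows) in neutrophil-like and Mo-Mac-like cells against the mean of the other gated types, with bars of 1 standard error, filled where the adjusted p was below 0.05. For neutrophil-like cells 28 points are filled, and for Mo-Mac-like cells 15 points are filled, all right of 0.

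Most members called in Mo-Mac-like cells were also called in neutrophil-like cells, as were most of all 35 members. The 12 members higher in both were 42.9% of the neutrophil-like list and 80% of the Mo-Mac-like list, and both lists come from the same fit. The neutrophil-like list held 28 of all 35 members, the same share, so this overlap is no result of its own. The overlap over all genes was not counted. The 3 called only in Mo-Mac-like cells were Ifi204, Ifi209 and Ifi44, and whether their difference from neutrophil-like cells passes was not tested. Ifi204 was at 360.4 CPM in WT day 3, 197 in WT day 5, 102 in Ccr2-/- day 3 and 106 in Ccr2-/- day 5 of Mo-Mac-like cells, with a log2 difference of 2.02 ± 0.41 (adjusted p = 0.000297). It shares 20% of its 50-base words with Ifi211 and Ifi209 shares 33.8% with Ifi214. Ifi27l2a, a mitochondrial membrane protein, was at 1136, 416, 1055 and 657 CPM in the same order. It had its highest mean level in Mo-Mac-like cells, with a log2 difference of 2.78 ± 0.42 (adjusted p = 3.28e-06).

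In the other types, few members were called. Blood endothelial-like cells had 5 members higher (Ifit3b, Ifitm3, Mx2, Slfn4 and Slfn5) and 1 lower (Ifi27l2a), beside 10.9% of all genes higher and 1.51% lower. Plasmacytoid DC-like cells had 5 higher (Ifi44, Mx1, Stat2, Trim30a and Trim30d) and 1 lower (Ifitm3), beside 6.32% and 4.52%. Lymphatic endothelial-like cells had 4 higher (Ifi44, Ifitm3, Isg15 and Xaf1) and 2 lower (Ifi204 and Trim30a), beside 10.3% and 3.51%. T cell-like cells had 4 higher (Ifi209, Ifit1bl1, Trim30a and Zbp1) and 1 lower, beside 7.92% and 2.99%. In each of these types a larger share of members than of all genes was called higher. The excess was largest in plasmacytoid DC-like cells and small in lymphatic endothelial-like cells, and was not tested. Fibroblast-like cells had 3 higher (Ifi204, Ifit1bl1 and Ifitm3) and 2 lower (Slfn4 and Trim30a), beside 15% and 3.75%.

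Lower calls were most frequent in NK cell-like and keratinocyte-like cells. NK cell-like cells had 0 members higher and 5 lower (Ifi27l2a, Ifitm3, Isg15, Oasl2 and Slfn5), beside 9.59% of genes higher and 7.2% lower. DESeq2 called 1 higher and 10 lower, beside 9.87% and 14.9% of all genes. By edgeR 11 members had an unadjusted p below 0.05, beside 28.1% of all genes. Keratinocyte-like cells had 0 higher and 4 lower (Parp14, Slfn5, Stat2 and Trim30a), beside 13.4% and 4.72%. DESeq2 called 0 higher and 9 lower, beside 12.3% and 9.74% of all genes. By edgeR 10 members had an unadjusted p below 0.05, beside 28.8% of all genes. The largest of these lower calls by edgeR was the fall of Trim30a in keratinocyte-like cells, at a log2 of -4.32 ± 0.70 (adjusted p = 5.67e-06). Basophil-like cells had 3 members higher (Ifit3b, Ifitm6 and Rsad2) and 0 lower, beside 10.5% of genes higher and 3.24% lower. Without WT day 3, the pool in which 1 basophil-like cell held most member reads, they had 0 higher and 1 lower, and the members' median log2 difference went from 0.30 to -1.12. Conventional DC-like cells had 2 higher (Ifitm6 and Trim30a) and 2 lower (Ifit3b and Xaf1), beside 7.67% and 3.3%. Perichondrial-like cells had 1 higher (Ifit3) and 2 lower (Slfn5 and Trim30a), beside 12.8% and 3.58%. Pericyte or smooth muscle-like cells had 1 higher (Ifitm3) and 0 lower, beside 7.98% and 0.974%. Mast cell-like cells had 0 higher and 1 lower (Slfn5), beside 7.19% and 0.856%, and mature DC-like cells 0 higher and 1 lower (Irf9), beside 6.9% and 1.49%. By DESeq2 the mast cell-like and mature DC-like cells had 0 higher and 3 lower each, beside 2% and 3.93% of all genes lower. By edgeR 4 and 5 members had an unadjusted p below 0.05, beside 19.1% and 21% of all genes. In all, 93 calls were made over the 15 types, 71 of them higher.

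Summed over 32 of the members, the level was highest in neutrophil-like cells among the types tested. The order of the other types differed from that of the calls. Ifitm3, Ifitm6 and Ifi27l2a were left out of this sum because they supplied most of its reads in stromal types, which left 32 members. The 32-member sum was 8860 CPM (interval 8598 to 9128) in WT day 3, 7336 (7255 to 7419) in Ccr2-/- day 3 and 5075 (5027 to 5124) in Ccr2-/- day 5 neutrophil-like cells. In Mo-Mac-like cells it was 2709 (2689.5 to 2729) in WT day 3, 1731 (1715 to 1747) in WT day 5, 705 (689 to 722) in Ccr2-/- day 3 and 1141 (1118 to 1164) in Ccr2-/- day 5. The neutrophil-like sums did not overlap the Mo-Mac-like sums in any of these pools. Blood endothelial-like cells lay between 1052 and 2090 CPM and fibroblast-like cells between 520 and 963 CPM. Plasmacytoid DC-like cells stood at 2892 CPM in WT day 3, 1449 in Ccr2-/- day 3 and 999 in Ccr2-/- day 5. They were thus above Mo-Mac-like cells in both day 3 pools. Without the cell with the most member reads of each type, WT day 3 gave 1754 CPM, beside 2663 CPM in Mo-Mac-like cells. Blood endothelial-like cells were above Mo-Mac-like cells in WT day 5 and Ccr2-/- day 3. Read depth moved with type, since the median neutrophil-like cell of these 3 pools had 8258 to 9780 reads, against 48788 to 68617 in Mo-Mac-like cells, and its part in the difference of the levels was not tested.

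**Figure D3:**
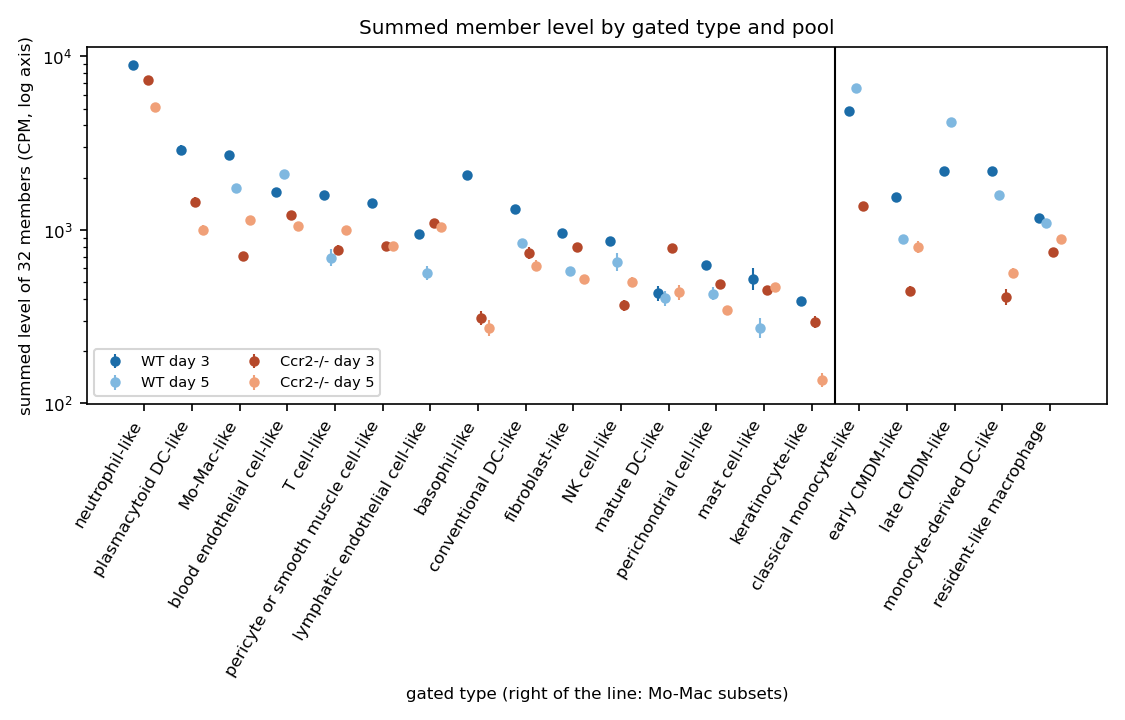
Summed level of 32 members (CPM, log axis, bars are exact 95% Poisson intervals) by gated type, with 1 point per pool. The 3 neutrophil-like points with enough cells lie between 5075 and 8860 CPM, above every other lineage.

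The breadth of the response within a cell was read as the share of cells with reads of at least 10 of the 35 members, again at 10000 reads per cell. Neutrophil-like cells reached this in 27.8% (interval 9.69 to 53.5, n = 18) in WT day 3, 31.3% (24.6 to 38.6, n = 179) in Ccr2-/- day 3 and 18.2% (14.3 to 22.6, n = 352) in Ccr2-/- day 5. Mo-Mac-like cells reached it in 37.5% (33.1 to 42.2, n = 453), 10.8%, 8.2% and 10.2% in pool order, so the share was above that of neutrophil-like cells in WT day 3 and below it in both Ccr2-/- pools. The WT day 3 intervals of these types overlapped. Thinning left out 35, 188 and 406 neutrophil-like cells of these pools as too shallow. The share in fibroblast-like cells was 8.6%, 1.43%, 6.63% and 1.67% in pool order. Classical monocyte-like cells of WT day 3 had the highest share of any group with over 10 cells, 65.2% (56.6 to 73.1, n = 138). Cells with reads of 20 or more members, a number chosen after the values were seen, were rare, 56 of 4759. Of these, 48 (85.7%) were Mo-Mac-like, among 1097 Mo-Mac-like cells, and 34 of the 48 came from WT day 3. Among the 48, 25 were gated as classical monocyte-like, out of 178 such cells. Neutrophil-like cells gave 2 of 551, counting only those with at least 10000 reads.

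Within Mo-Mac-like cells, the order of the subsets differed between pools. The gates followed the order the study proposes, in which classical monocytes become early and then late macrophages derived from them (CMDMs), beside monocyte-derived DCs and resident-like macrophages. The 32-member sum of classical monocyte-like cells was 4869 CPM in WT day 3 (n = 140 cells), 6588 in WT day 5 (n = 14), 1376 in Ccr2-/- day 3 (n = 18) and 455 in Ccr2-/- day 5 (n = 8). Early CMDM-like cells stood at 1552, 890.5, 443 and 796 CPM in the same order, and resident-like macrophages at 1164, 1094, 742 and 884 CPM. Monocyte-derived DC-like cells stood at 2184, 1592, 410 and 565 CPM. In the 3 pools with at least 10 classical monocyte-like cells, their sum was above that of early CMDM-like, monocyte-derived DC-like and resident-like cells of the same pool. In Ccr2-/- day 5, with 8 cells, it was below all 3.

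Some of these sums rested on 1 cell. In the WT day 5 classical monocyte-like cells a single cell held 65.7% of the member reads, and the sum was 2611 CPM without it. Late CMDM-like cells stood at 2172 CPM in the WT pool of day 3 and 4157 in that of day 5, and the latter was 2815 without the cell with the most member reads, above the 2611 CPM of classical monocyte-like cells of that pool without theirs. Medians over single cells were lower, at 3768 and 1640 CPM on days 3 and 5 of WT for classical monocyte-like cells, and 1233 and 848 for late CMDM-like cells. The median of late CMDM-like cells was thus lower on day 5 while their sum was higher. The 5 late CMDM-like cells of Ccr2-/- day 5 had a sum of 5297 CPM, of which 93.3% came from 1 cell, and 596 CPM without it.

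**Figure D4:**
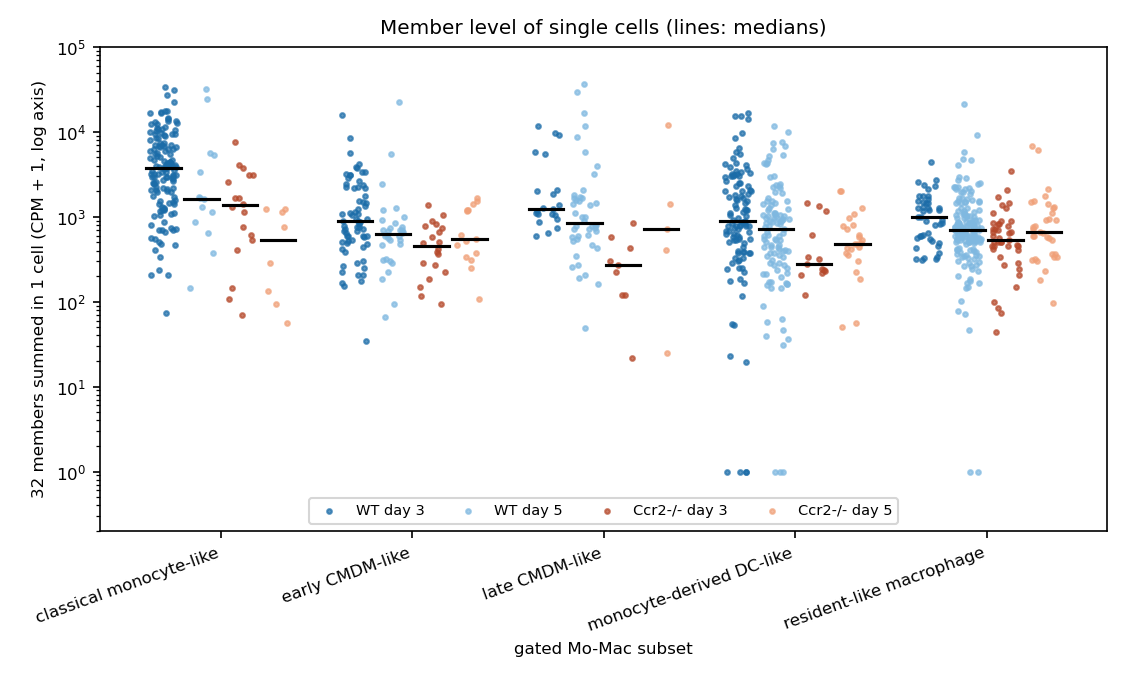
Summed level of 32 members in single cells (CPM + 1, log axis) for the 5 Mo-Mac subsets, with 1 point per cell, coloured by pool, and lines at the medians. Classical monocyte-like cells of WT day 3 have a median of 3768 CPM, and a few cells of other subsets reach the same range.

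Each subset was tested against classical monocyte-like cells with the pool as a block (edgeR, 13834 genes). Early CMDM-like cells had 0 members higher and 3 lower (Ifitm3, Ifitm6 and Slfn4), beside 0.00723% and 0.0723% of all genes, with a median log2 difference of -2.22 over the members and 0.06 over all genes. Monocyte-derived DC-like cells had 0 higher and 3 lower (Ifi204, Ifitm3 and Slfn4), beside 0.13% and 0.159%, with medians of -1.79 and 0.08. Resident-like macrophages had 0 higher and 8 lower (Ifi204, Ifi209, Ifitm3, Ifitm6, Irf7, Isg15, Slfn4 and Zbp1), beside 0.788% and 1.42%, with medians of -1.88 and 0.16. Slfn4 fell in all 3, from 371, 383 and 105 CPM in the classical monocyte-like cells of both WT pools and the Ccr2-/- day 3 pool to 13.4, 11.7 and 1.74 CPM in the resident-like macrophages of those pools, a log2 difference of -5.10 ± 0.57 (adjusted p = 0.000594). Late CMDM-like cells had 0 members called by edgeR in either direction, while 0% of all genes were called. There 6 members had an unadjusted p below 0.05, beside 6.4% of all genes, and DESeq2 called 2 lower, beside 0.426%.

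The subset calls depended on the gate. Ly6c2 and Plac8, which help to define the monocyte gate, can themselves be induced by interferon, and when the gate was set without them 0 members were called in each of the 4 comparisons by edgeR, with 5, 4, 2 and 3 members at an unadjusted p below 0.05 in early CMDM-like, late CMDM-like, monocyte-derived DC-like and resident-like cells. That gate kept Chil3, Vcan and F10 as markers and, with at least 3 markers to be read, needed reads of all 3. Under that gate the members' median log2 difference was -0.56, 0.90, -0.43 and -0.19 in the same order, against -2.22, -0.73, -1.79 and -1.88 in the gate as used. The members' direction thus turned in late CMDM-like cells, where 30 of 35 members were positive, and 14 of 35 were positive in resident-like macrophages. Shares and medians over all genes under that gate are not given here. Whether the members moved apart from all genes is therefore not shown. Classical monocyte-like sums under that gate were 4063, 955, 770 and 849 CPM in pool order. In the gate as used, Plac8 was at 354 to 1477 CPM in classical monocyte-like cells and at most 388 CPM in any other subset and pool. Over all pools, Chil3 and F10 were at 1446 and 195 CPM in classical monocyte-like cells and at 1175 and 175 CPM in late CMDM-like cells. Ifitm6 was listed at 0 reads in the early CMDM-like cells of both Ccr2-/- pools and at 0.355 and 1.22 CPM in those of the WT pools, beside 96.6 to 255 CPM in classical monocyte-like cells.

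Between genotypes, members were lower in Mo-Mac-like cells of the Ccr2-/- pools, most of all on day 3. The ratio of the 32-member sums, Ccr2-/- over WT, was 0.260 on day 3 and 0.659 on day 5. On day 3 all 35 members were lower in the Ccr2-/- pool, beside 55.1% of the 18351 genes with at least 10 reads in the pair, and on day 5 26 of 35, beside 55.9%. There is no test within a day, because each genotype had 1 pool. Irf7 of Mo-Mac-like cells was at 151, 80.3, 23.0 and 23.3 CPM in pool order, so the genotypes did not overlap. Slfn4 was at 144, 50.8, 13.1 and 6.11 CPM in pool order, also without overlap. Isg15 (108 and 45.1 against 13.6 and 37.4 CPM) and Slfn5 (287 and 172 against 70.5 and 78.9 CPM) were likewise lower in both Ccr2-/- pools. Ifit1 was at 19.0, 48.4, 10.3 and 44.4 CPM in pool order, so its values crossed.

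**Figure D5:**
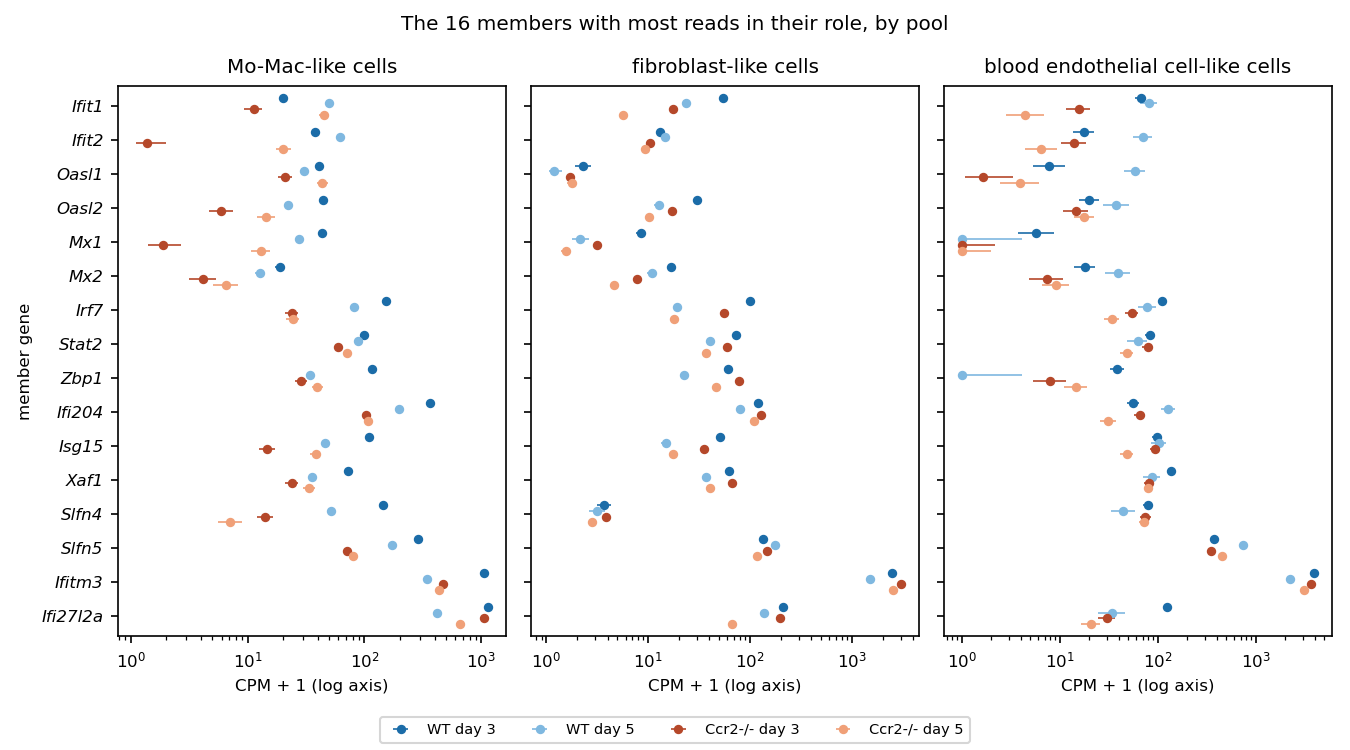
Level (CPM + 1, log axis, bars are exact 95% Poisson intervals) of the 16 members with the most reads in their role, by pool, in the gated types of the panels. In the Mo-Mac-like panel Irf7, Slfn4 and Slfn5 of both Ccr2-/- pools lie left of both WT pools.

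In the additive fit of genotype and day over the 4 pools, which leaves 1 residual degree of freedom, edgeR called 0 of 35 members between genotypes in Mo-Mac-like cells, beside 0.00612% of all genes called. The smallest adjusted p was 0.139 (Slfn4, log2 -3.24 ± 0.24), and 16 members had an unadjusted p below 0.05, beside 14.6% of all genes. DESeq2 called 11 of the 35, all lower, beside 4.57% of all genes lower and 6.52% higher. The members' median log2 difference was -1.19, beside -0.04 over all genes, and 34 of 35 were negative. Irf7 had a log2 difference of -2.23 ± 0.29 (adjusted p = 0.181) and Ifi204 of -1.33 ± 0.27 (adjusted p = 0.203).

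The make-up of the Mo-Mac-like gate moved with genotype, since classical monocyte-like cells were 140 of 472 Mo-Mac-like cells in WT day 3 and 18 of 127 in Ccr2-/- day 3. Within subsets, the day 3 ratio of sums, Ccr2-/- over WT, was 0.283 in classical monocyte-like, 0.285 in early CMDM-like, 0.187 in monocyte-derived DC-like and 0.638 in resident-like cells. All 35 members were lower in the Ccr2-/- classical monocyte-like cells on day 3, beside 63.6% of genes, and all 35 in monocyte-derived DC-like cells, beside 58.8%. On day 5 29 of 35 were lower in monocyte-derived DC-like cells, beside 59.2%. Median levels over Mo-Mac-like cells gave a ratio of 0.369 on day 3. Neutrophil-like cells, in contrast to the sums of Mo-Mac-like cells, had a ratio of 0.828 on day 3, and the difference between these ratios was not tested.

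In fibroblast-like cells most members were at lower levels in the day 5 pools. The 32-member sums were 963, 580, 799.6 and 520.1 CPM in pool order, so both day 5 pools lay below both day 3 pools. Of the members with at least 10 reads in the pair, 30 of 34 were lower on day 5 in WT, beside 51.7% of genes, and 31 of 35 in Ccr2-/-, beside 47%. Irf7 was at 97.9, 18.4, 54.2 and 17.1 CPM in pool order, so the days did not overlap. Ifit1 was at 53.8, 22.5, 16.7 and 4.63 CPM in pool order. Stat2 was at 71.9 and 39.1 CPM and at 58.1 and 36.2 CPM, and Isg15 at 49.7 and 13.8 and at 34.0 and 16.4 CPM, in the same order. edgeR called 0 of the 33 members tested between days, beside 0% of all genes. An unadjusted p below 0.05 was reached by 21, beside 6.77% of all genes. DESeq2 called 15, all lower, beside 1.38% of all genes lower. The median log2 difference, day 5 minus day 3, was -0.92 over the members and 0.00 over all genes, with a smallest adjusted p of 0.710 (edgeR). Without cells of over 100000 reads the median was -0.46, and 7 of 31 members tested had an unadjusted p below 0.05, beside 5.74% of all genes.

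The other genotype and day fits gave no edgeR call either. Between genotypes in fibroblast-like cells, 0 of 33 members were called, beside 0% of genes. There 12 had an unadjusted p below 0.05, beside 20% of genes. DESeq2 called 2 higher and 9 lower, beside 9.17% and 7.84% of genes. Blood endothelial-like cells had 0 of 30 called between genotypes and 0 of 30 between days, beside 0% of genes each. Between genotypes 8 had an unadjusted p below 0.05, beside 4.36% of genes, and DESeq2 called 5 lower, beside 0.713%. Between days 2 had an unadjusted p below 0.05, beside 2.65% of genes, and DESeq2 called 0, beside 0.562%. Of the members with at least 10 reads in a pair, 26 of 32 were lower in Ccr2-/- than in WT blood endothelial-like cells on day 3, beside 49.8% of genes, and 23 of 28 on day 5, beside 43.9%. Mo-Mac-like cells had 0 of 35 called between days, beside 0% of genes. There 7 had an unadjusted p below 0.05, beside 6.96% of genes, and DESeq2 called 5, beside 3.12%. In the WT pools 28 of 35 members were lower on day 5 than on day 3 in Mo-Mac-like cells, beside 49.9% of genes, and in the Ccr2-/- pools 6 of 34, beside 50.5%. Their day 5 over day 3 ratio of the 32-member sums was 0.639 in WT and 1.62 in Ccr2-/-, and without the cell with the most member reads the Ccr2-/- day 5 sum was 772 CPM, beside 661 CPM on day 3, likewise without such a cell.

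In some groups, though not in all, members tended to be read together in single cells. Among 178 classical monocyte-like cells thinned to equal depth, the correlation over cells of pairs of the 29 members read in at least 10% of cells had a median r of 0.25, with 393 of 406 pairs positive and a highest value of 0.72 for Ifit2 and Rsad2. In 551 neutrophil-like cells the median was 0.12 over 210 pairs, and in 1862 fibroblast-like cells 0.10 over 78 pairs. These values describe cells that share libraries and pools and carry no test. In WT day 3 classical monocyte-like cells, the 27 with a read of Rsad2 had reads of a median of 19 other members, beside 10 in the 111 without. In Ccr2-/- day 3 neutrophil-like cells the medians were 10 in 46 cells with a read and 6 in 133 without. In WT day 5 fibroblast-like cells they were 2 in 3 cells with a read of Rsad2 and 3 in 277 without. In WT day 3 blood endothelial-like cells both medians were 5, in 6 cells with a read of Rsad2 and 55 without.

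Of 58 other genes of the pathway, listed by role, 42 matched a row of the matrix. The type I interferons themselves were nearly unread. Ifnz, a member of the mouse type I family, had 61 reads in 26 cells, and Ifnb1, the interferon-β gene, had 10 reads, all in 1 cell. Ifng, which encodes the type II interferon, had 2354 reads in 209 cells and was highest in NK cell-like cells, at a mean of 149 CPM over pools.

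Receptors and signalling genes of the pathway were also raised in neutrophil-like cells, beside the 23% of all genes that were higher there. Of the receptor genes 5 of 5 tested were higher, as were 2 of 4 interferon regulatory factors and 4 of 4 inhibitors, and sensors and adaptors had 4 higher and 2 lower of 10. Ifnar2, a chain of the type I receptor, stood at a mean of 148 CPM in neutrophil-like and 276 in plasmacytoid DC-like cells, and Ifngr1, a chain of the interferon-γ receptor, was highest in NK cell-like cells at 529 CPM. Jak1 and Jak2, the receptor kinases, were at 497 and 397 CPM in neutrophil-like cells. Irf1, an early factor of both interferon types, was highest in neutrophil-like cells at 874 CPM, and Irf8, which plasmacytoid DCs need, was highest in plasmacytoid DC-like cells at 2384 CPM.

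Among the other roles, Myd88, the adaptor of Toll-like receptors, was highest in neutrophil-like cells at 243 CPM, and Sting1, the sensor partner of cGAS, in plasmacytoid DC-like cells at 168 CPM. Socs3 and Socs1, which block the kinases, were at 1189 and 209 CPM in neutrophil-like cells. Of 8 genes known from the interferon-γ response, 5 were higher in neutrophil-like cells, 3 in blood endothelial-like cells (Cxcl10, Gbp2 and Iigp1), 3 in pericyte or smooth muscle-like cells (Cxcl10, Cxcl9 and Iigp1) and 2 in Mo-Mac-like cells (Ciita and Cxcl10). Gbp2, a guanylate-binding protein, was at 742 CPM in neutrophil-like cells, while Iigp1, an immunity-related GTPase, was highest in lymphatic endothelial-like cells at 660.3 CPM. Mo-Mac-like cells had 2 of 5 receptor genes and 3 of 10 sensors and adaptors higher (Tlr7, Tlr9 and Unc93b1), beside 10.7% of all genes. Plasmacytoid DC-like cells had 5 of 10 sensors and adaptors higher, beside 6.32% of all genes.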

How the data were processed

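Cells of 4 hashtagged pools were sequenced together with BD Rhapsody and TAS-Seq, 1 pool per genotype and day. The deposited matrices hold read counts per gene and cell and per hashtag and cell, made by the authors with cutadapt and Bowtie2 on GRCm38.p6 transcripts and a modified BD Rhapsody script. Per the paper, a distribution-based correction removed background reads that came from diffused RNA. They are reads, not molecules. Per the labels, hashtags mark the pools, and 9 hashtag columns of no pool were not used.

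Each cell was given to a pool where its leading hashtag had at least 10 reads and 3 times the next (pseudocount 1). Barcodes with several hashtags (570), too few hashtag reads (760) or over 20% mitochondrial reads (594) were left out. Cells of 1 pool caught together share a hashtag, and no expression-based doublet caller was run. Types and Mo-Mac subsets were gated by scores over fixed marker lists, with at least 3 markers read, and 4884 of the 5391 gated cells that Leiden clusters (scanpy 1.11.5) could also name had the same name.

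Reads were summed per type and pool where at least 10 cells were present. Sums were tested with edgeR 4.0.16 in R 4.3.3 (filterByExpr, TMM, quasi-likelihood test, Benjamini-Hochberg adjustment over all genes tested, threshold 0.05), with the pool as a block between types, and with genotype and day in 1 additive fit where each pool had at least 20 cells. DESeq2 1.42.0 was an alternative, and the fits were tested on simulated data. CPM values are not divided by gene length and were not compared between genes. Intervals are exact Poisson (CPM) or Clopper-Pearson (shares) at 95%.

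The members and lists were chosen with earlier results of these data known. Named are the 2 members of each role, and the 2 other pathway genes of each role, with the most reads. Rsad2, Usp18, Ifi44, Ifi209, Ifitm6, Trim30a, Trim30d, Ifnz, Ifnb1 and the other genes listed beside counts were named after their values were seen where that rule did not name them. The counts of 1 role of the pathway list are not reported here.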

Additional observations from a re-analysis of the deposited data

Results flagged for a closer look

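Day 5 over day 3 ratios of the summed level differed between genotypes in a pair of types, and none of these differences was tested. In Mo-Mac-like cells the ratio over 32 members was 0.639 in WT and 1.62 in Ccr2-/-, and without the cell with the most member reads of each pool the Ccr2-/- sums were 661 CPM on day 3 and 772 CPM on day 5. Over all 35 members it was 0.50 in WT and 1.01 in Ccr2-/-, where the sums of 2239 and 2259 CPM were nearly equal, 17.8% of the day 5 member reads came from 1 cell and the mean over cells was 2474 CPM on day 3 and 2144 CPM on day 5. In blood endothelial-like cells the ratio over 32 members was 1.26 in WT and 0.865 in Ccr2-/-. Without the cell with the most member reads of each pool, the WT sums were 1580.5 CPM on day 3 and 1599 CPM on day 5, and over all 35 members the ratios were 0.764 and 0.852, below 1 in both genotypes.

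Barcodes outside the comparisons also carried reads of the 32 members. Their summed level was 630.1 CPM in 712 barcodes with too few hashtag reads, 830.5 CPM in 529 with several hashtags, 478 CPM in 505 over the mitochondrial limit and 849.8 CPM in 1464 kept but ungated cells, beside 1089 CPM in gated cells.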

How the results depend on the processing

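The 28 members higher in neutrophil-like cells and the 15 higher in Mo-Mac-like cells stayed within 1.5 times of these counts under every alternative run. Higher calls in the other types rose from 28 to 52 with Leiden clusters. Lower calls in any type rose from 22 to 53 with DESeq2 and 44 with Leiden clusters, and were 6 to 16 in the fits that left out 1 pool. Between subsets, the lower calls (early CMDM-like 3, late CMDM-like 0, monocyte-derived DC-like 3, resident-like 8) were 13, 2 and 10 with DESeq2 in the first 3 and 19, 2, 15 and 15 with no filter on low counts. Of all genes, 1.24%, 0.426% and 1.74% were lower with DESeq2 and 0.584%, 0.193%, 0.8% and 1.54% with no filter. Leiden clusters gave 1 for late CMDM-like and 0 for monocyte-derived DC-like cells. Without cells of over 100000 reads they were 0, 1 and 4 in early CMDM-like, monocyte-derived DC-like and resident-like cells, and 0 in each with the monocyte gate set without Ly6c2 and Plac8. Leaving out 1 pool gave 0 in early CMDM-like cells without WT day 3, WT day 5 or Ccr2-/- day 3, 0 to 1 in monocyte-derived DC-like and 1 to 5 in resident-like cells. Between genotypes the 0 calls became 11, 11 and 5 in Mo-Mac-like, fibroblast-like and blood endothelial-like cells with DESeq2, 17, 3 and 2 with no filter, 1 in Mo-Mac-like cells with Leiden clusters and 1 in fibroblast-like cells at a hashtag ratio of 10. The shares of all genes called were 11.1%, 17% and 1.58% with DESeq2, 2.77%, 2.67% and 0.351% with no filter, 0.103% with Leiden clusters and 0.445% at that ratio. Between days the 0 calls became 5 and 15 in Mo-Mac-like and fibroblast-like cells with DESeq2, beside 3.12% and 2.72% of all genes, and 6 in Mo-Mac-like cells with no filter, beside 0.488%. The cause of these changes was not tested.

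Without Ifitm3, Ifitm6 and Ifi27l2a the summed level, as a mean over pools, went from 2999 to 1572 CPM in Mo-Mac-like, 3256 to 715.5 in fibroblast-like, 4753 to 1503 in blood endothelial-like and 7236 to 4278 in classical monocyte-like cells. The share of cells with at least 10 members, as a mean over pools, went from 25.7% to 17.3% unthinned and 13.9% at 5000 reads in neutrophil-like cells, from 16.7% to 36.8% unthinned in Mo-Mac-like and from 4.58% to 31.3% unthinned in fibroblast-like cells. At least 5 members were read in 70.9%, 54.6% and 35% of these types and in 77.2% of classical monocyte-like cells, beside 42.9% with at least 10. For 29 results on named members, 227 of 304 alternative values kept their side of the threshold, 77 lost it and 0 reversed. Levels without the cell with the most member reads were added after seeing the data. Genotype and day fits without 1 pool leave no residual degree of freedom and were not run. No paired analysis was possible because each genotype and day had 1 pool with no replicate number.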
